A study of Homo sapiens with 8 samples.

Results

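LY6K-AS is a long non-coding RNA transcribed antisense to LY6K. The comparison described here set A549 cells transfected with gapmers against LY6K-AS beside A549 cells transfected with a scramble gapmer. A549 is an established human lung adenocarcinoma line. It used 4 of the 8 RNA-seq libraries of the series and 14662 of the 66206 genes in their table, those with at least 0.5 RPKM (reads per kilobase of merged exons, scaled to library size) in at least 2 of the 4 libraries. For all 4 libraries the cells were grown in the same serum-containing medium and received 25 pmol of a locked nucleic acid (LNA) gapmer with 1 lipid reagent. The controls, called control 1 and control 2, received the scramble sequence, and the knockdown libraries are titled LNA1 and LNA3. The titles may stand for separate gapmers against LY6K-AS, which the labels do not settle, and no time after transfection is stated. No label says whether the libraries are separate cultures, so a p-value here reflects library-to-library spread that may be technical. The other 4 libraries of the series, treated with siRNAs, were normalized in a separate table and serve here only for 1 estimate of spread and 1 check of counting.

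A gapmer is a single-stranded oligonucleotide with locked, nuclease-resistant ends and a DNA centre. Paired with an RNA in the nucleus or cytoplasm, the DNA centre recruits RNase H1, which cuts the RNA strand. Introns of a primary transcript are accessible to the enzyme as well as mature RNA. The study's title links LY6K-AS to mitotic progression, and the gene lists below cover other functions of the cell: making and processing RNA, packing chromatin, exporting proteins, handling lipids and adhering to matrix.

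Depth, as the read total behind the RPKM, was 33968088 and 30546710 reads in the controls, 26179563 in LNA1 and 30887465 in LNA3, and mitochondrially encoded genes took 8.43%, 6.43%, 8.37% and 4.12% of them. The targeted transcript, matched by position to the gene LNCOC1, was counted with 34 and 17 reads in the controls, 3 in LNA1 and 8 in LNA3, under the level tested. Its span overlaps that of LY6K on the other strand, and whether counting used strand is not stated. LY6K, likewise not tested, had 35 and 42 reads in the controls, 53 in LNA1 and 55 in LNA3. Of the A549 markers, 15 of 15 were tested, with summed levels of 7438 and 7314 RPKM in the controls, 6941 in LNA1 and 8305 in LNA3. Their members differed in opposite directions: ALDH1A1 was at 2701 and 2651 RPKM in the controls, 1952 in LNA1 and 1650 in LNA3, while ALDH3A1, at 490 and 507, then 793 and 2323, carried the LNA3 sum. CDKN2A, which the line has lost, had 0 reads in all 4 libraries. None of 6 endothelial markers, 1 of 7 fibroblast markers (COL1A1) and 1 of 7 immune markers (CD14) passed the filter. The fibroblast markers summed to 6.54 and 7.19 RPKM in the controls, 9.68 in LNA1 and 3.81 in LNA3, a sum set by COL1A1.

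No gene passed the test. limma with an intensity trend on log2(RPKM + 1) called 0 of 14662 genes at an adjusted p of 0.05 (0%), with a smallest adjusted p of 0.103, and limma voom, run on reads recovered from the RPKM, called 0 of 17086 and gave 4265 genes an unadjusted p under 0.05. At an unadjusted p under 0.05 stood 3706 genes (25.3%), 1988 higher and 1718 lower in the knockdown. That count was 828 without control 1 and 973 without control 2. With only 1 knockdown library left it was 8768 without LNA1 and 6643 without LNA3, and 7725 and 4350 genes passed the adjusted threshold, where the spread came from the 2 controls alone. The differences below are therefore descriptions of these 4 libraries, given on the log2(RPKM + 1) scale with a standard error (SE), a scale that understates the difference of low genes. Both knockdown libraries lay above both controls for 4610 genes (31.4%) and below both controls for 4475 (30.5%), and the counts of list members are read beside these shares. At least 1.5-fold higher in both knockdown libraries than the control mean were 339 genes (2.31%), and 229 (1.56%) were at least 1.5-fold lower.

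**Figure D1:**
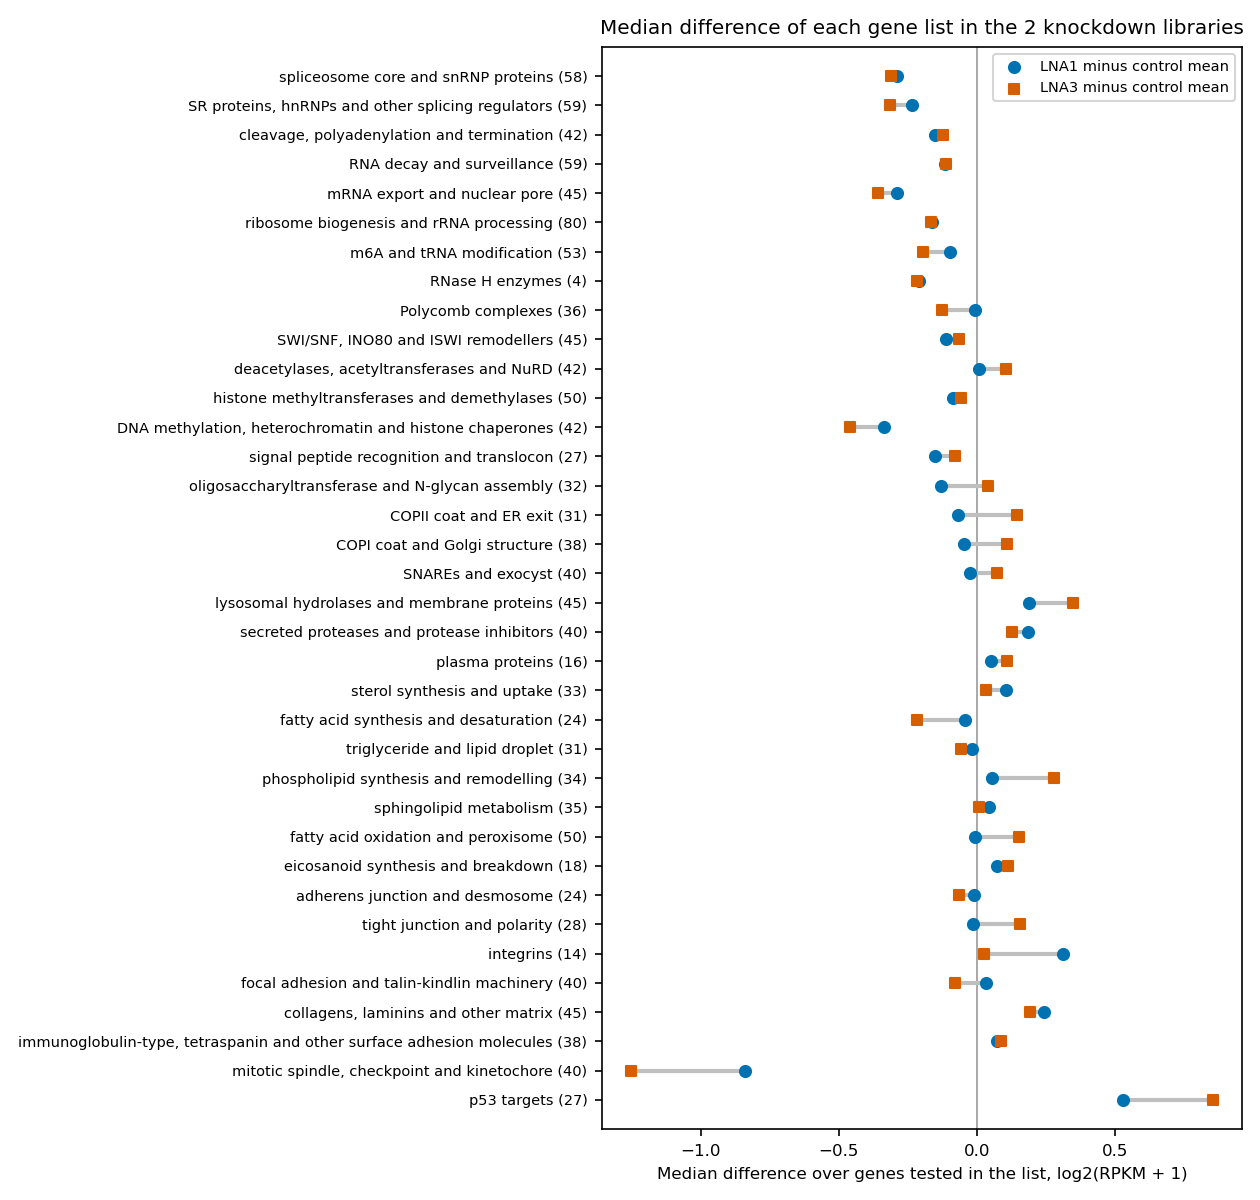
Median over each gene list of the difference between a knockdown library and the control mean, in log2(RPKM + 1), for LNA1 (circles) and LNA3 (squares); the number of genes tested stands in brackets. RNA processing lists lie left of 0 in both libraries, lysosomal and matrix lists lie right of 0 in both, and the mitotic and p53 lists lie farthest out.

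GDF15, a secreted stress cytokine, was at 24.8 and 25.1 RPKM in the controls, 60.7 in LNA1 and 206 in LNA3, a difference of 2.12 ± 0.60 (SE). CDKN1A, the cyclin-dependent kinase inhibitor p21, was at 59.7 and 59.0 RPKM in the controls, 158 in LNA1 and 234 in LNA3 (1.68 ± 0.21). FDXR, the mitochondrial reductase that feeds electrons to ferredoxin, was at 27.9 and 29.7 RPKM, then 57.7 and 152 (1.67 ± 0.48). All 3 are higher in LNA3 than in LNA1. They were picked among genes at least 1.5-fold higher in both knockdown libraries, so lying above the controls follows from that choice. The next 7 on the higher side were PLXNB3, a semaphorin receptor, FBXO2, a ubiquitin ligase subunit that binds N-glycans, ADAMTS7, a secreted metalloprotease, TNFSF9, a ligand of the TNF family, KANK3, the receptor phosphatase PTPRH and the steroid dehydrogenase HSD17B14, between 1.48 and 1.64.

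On the lower side EPB41L2, a member of the band 4.1 family that ties membrane proteins to actin, had the largest difference. It was at 12.2 and 13.0 RPKM in the controls, 2.46 in LNA1 and 5.34 in LNA3 (−1.54 ± 0.31), so it was lower in LNA1 than in LNA3. The other 9 were PBK, DLGAP5, POLA1, TOP2A, RRM2, BUB1, KIF11, ANLN and HMMR, genes of mitosis and DNA synthesis, between −1.45 and −1.22. POLA1, the catalytic subunit of DNA polymerase alpha, was at 9.88 and 10.0 RPKM, then 3.80 and 2.69 (−1.38 ± 0.16). DLGAP5, a spindle protein that stabilises kinetochore fibres, was at 18.9 and 19.3 RPKM, then 8.01 and 5.56 (−1.38 ± 0.18). The limma adjusted p of these 20 genes ran from 0.103 to 0.150. CDKN1A, PLXNB3, FBXO2, KANK3, RRM2, ANLN and HMMR share exon bases with another annotated gene.

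The promoters of genes at both ends are shown because short elements differed in frequency between the 2 sets. Each runs 5′ to 3′ on the gene's strand from 250 bases before to 50 bases after the RefSeq start (GRCh38.p14), and capitals mark every match, on either strand, to 1 of 7 words: TTTGAA (the cell cycle homology region), CCAAT (the box bound by NF-Y), TATAAA (the TATA box), TTTCCCGC (an E2F element), GGANTTTCC (NF-kB), TGANTCA (AP-1) and TCACNCCAC (a sterol element).
DLGAP5, chr14:55191536-55191835, minus strand: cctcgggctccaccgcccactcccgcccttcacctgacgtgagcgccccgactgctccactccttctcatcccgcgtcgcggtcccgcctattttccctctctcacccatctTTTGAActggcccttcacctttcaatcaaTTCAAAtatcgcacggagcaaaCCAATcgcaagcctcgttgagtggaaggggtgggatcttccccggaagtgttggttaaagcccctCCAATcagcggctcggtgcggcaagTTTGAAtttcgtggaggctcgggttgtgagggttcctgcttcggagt
EPB41L2, chr6:131063196-131063495, minus strand: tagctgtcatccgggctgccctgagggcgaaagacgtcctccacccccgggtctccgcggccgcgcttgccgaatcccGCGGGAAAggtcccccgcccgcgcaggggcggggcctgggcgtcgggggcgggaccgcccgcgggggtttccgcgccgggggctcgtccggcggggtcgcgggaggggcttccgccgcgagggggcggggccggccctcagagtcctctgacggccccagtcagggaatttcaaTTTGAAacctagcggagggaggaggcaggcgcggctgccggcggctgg
POLA1, chrX:24693668-24693967, plus strand: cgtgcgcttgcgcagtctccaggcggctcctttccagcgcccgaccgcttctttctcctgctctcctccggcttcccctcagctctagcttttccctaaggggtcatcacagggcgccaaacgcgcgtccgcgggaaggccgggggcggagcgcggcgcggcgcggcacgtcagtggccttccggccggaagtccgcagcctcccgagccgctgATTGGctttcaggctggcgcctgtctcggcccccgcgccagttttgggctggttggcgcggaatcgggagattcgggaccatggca
GDF15, chr19:18385908-18386207, plus strand: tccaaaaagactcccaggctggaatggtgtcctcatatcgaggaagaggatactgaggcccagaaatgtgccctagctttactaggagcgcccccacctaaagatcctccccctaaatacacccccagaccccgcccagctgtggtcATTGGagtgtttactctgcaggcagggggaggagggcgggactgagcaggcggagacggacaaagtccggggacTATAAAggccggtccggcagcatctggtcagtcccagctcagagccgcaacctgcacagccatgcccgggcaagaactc

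DLGAP5 held TTTGAA at 3 places and CCAAT at 2, and EPB41L2 held TTTGAA just after its start. The windows of CDKN1A (chr6:36678464-36678763) and FDXR (chr17:74872945-74873244) held none of the 7 words, which says nothing about binding there. RefSeq promoters were found for 9318 protein-coding genes tested, among them 189 of the genes 1.5-fold higher in both libraries and 168 of those 1.5-fold lower. TTTGAA stood in 38.7% of the lower genes' windows, 4.76% of the higher genes' and 8.93% of all. CCAAT stood in 58.9%, 28.6% and 36.3%. The AP-1 word ran the other way, in 1.79% of lower (3 genes), 8.99% of higher (17 genes) and 4.46% of all windows. So did the NF-kB word with 0.595%, 3.70% and 1.53%, but on only 1 lower and 7 higher genes. TATAAA (4.17%, 6.88% and 4.97%), the E2F word (5.36%, 2.65% and 2.78%) and the sterol word (0.595%, 1.06% and 1.03%) differed less, in percentage points, between lower and higher genes. The E2F word stood in 9 lower and 5 higher genes. A match is a run of letters and not a binding site, base composition was not matched, and no test was made.

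RNA processing held the broadest difference beyond cell division. Of 410 genes in 8 lists 400 were tested, and both knockdown libraries lay below both controls for 256 (64.0%) and above both for 46 (11.5%), with a median difference of −0.20 (−0.19 in LNA1 and −0.21 in LNA3) against 0.00 over all genes. The differences were small: 6 genes were at least 1.5-fold lower in both libraries and 0 were 1.5-fold higher. The splicing lists were the most even. The spliceosome removes introns with small nuclear ribonucleoprotein particles (snRNPs), and of 58 core and snRNP genes 45 lay below both controls and 4 above (median −0.28). SNRPE and SNRPG, subunits of the Sm ring shared by snRNPs, were the lowest. SNRPE was at 24.7 and 24.5 RPKM in the controls, 13.7 in LNA1 and 13.2 in LNA3 (−0.83 ± 0.08). SNRPG was at 19.7 and 19.1, then 10.1 and 10.6 (−0.85 ± 0.09), so that for both genes the knockdown libraries differed by less than 0.1. SNRPD1 of the same ring (−0.66) and LSM3 (−0.65), a subunit of the related LSm ring, followed.

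Among 59 SR proteins, hnRNPs and other splicing regulators, which bind pre-mRNA and steer splice site choice, 45 lay below both controls and 4 above (median −0.29). SRSF3 was at 42.5 and 42.7 RPKM in the controls, 28.7 in LNA1 and 24.7 in LNA3 (−0.66 ± 0.11). HNRNPA2B1, one of the most abundant hnRNPs, was at 374 and 380, then 264 and 229 (−0.61), and SRSF2 (−0.60) and the cold-inducible RBM3 (−0.58) were lower by similar amounts. The mRNA export and nuclear pore list had 33 of 45 members below both controls and 0 above (median −0.32). Its lowest members differed between the knockdown libraries: the scaffold nucleoporin NUP155 was at 9.83 and 10.2 RPKM in the controls, 6.68 in LNA1 and 2.85 in LNA3, and NUP107 (−0.88) and the export factor THOC2 (−0.85) were likewise lower in LNA3. The transmembrane pore protein NDC1 (−0.75 ± 0.13) was closer between them.

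Ribosome biogenesis, which makes and trims ribosomal RNA in the nucleolus, had 47 of 80 members below both controls and 11 above (median −0.18). NPM1, the nucleolar chaperone nucleophosmin, was at 93.4 and 87.5 RPKM in the controls, 51.9 in LNA1 and 44.8 in LNA3 (−0.89 ± 0.11). The core proteins of modification snoRNPs NOP58 (−0.58) and DKC1 (−0.56) were also lower, and NOP53 (0.53) was higher. The decay and surveillance list (30 of 59 below both controls, 11 above, median −0.14) held the exosome subunit EXOSC8 (−0.77 ± 0.11), the deadenylase PARN (−0.85 ± 0.29) and the exosome-associated helicase MTREX (−0.62) on the lower side, and TOB1 (0.70), which recruits deadenylases, on the higher side. Cleavage and polyadenylation had 23 of 42 below and 5 above (median −0.13), among them the endonuclease CPSF3 (−0.59 ± 0.10) and the poly(A) polymerase PAPOLA (−0.65). Genes of m6A and tRNA modification had 30 of 53 below and 11 above (median −0.15), but the lowest stood apart in 1 library each: ZC3H13, a subunit of the m6A writer, was at 7.74 and 8.20 RPKM in the controls, 2.31 in LNA1 and 6.55 in LNA3, while TRMT6 was at 14.8 and 14.6, then 14.3 and 4.14. RNASEH1, the enzyme through which gapmers act, was at 21.7 and 20.6 RPKM in the controls, 19.4 in LNA1 and 22.5 in LNA3. RNASEH2A was at −0.31, and 3 of the 4 enzyme genes lay below both controls.

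Differences also followed transcript GC content, which averaged 47.1% over these genes. After a GC trend was taken out of every library, the medians of the spliceosome and export lists were −0.24 and −0.29. Those of splicing regulators (−0.19), cleavage and polyadenylation (−0.08), decay (−0.06) and modification (−0.05) moved nearer to 0 by more than 1.5 times. Reads may be shared with processed copies elsewhere in the genome for SNRPG, SNRPE and NPM1. Their control means were 19.4, 24.6 and 90.5 RPKM here and 49.5, 52.8 and 472 RPKM in the scramble siRNA libraries, which were normalized separately, while SRSF3 had 42.6 and 36.3. HNRNPA2B1, SRSF2, RBM3, LSM3, NUP107, THOC2, NOP58, DKC1, NOP53, EXOSC8, MTREX, TOB1, PAPOLA, RNASEH1 and RNASEH2A share exon bases with another annotated gene, and without strand their reads cannot be told apart.

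**Figure D2:**
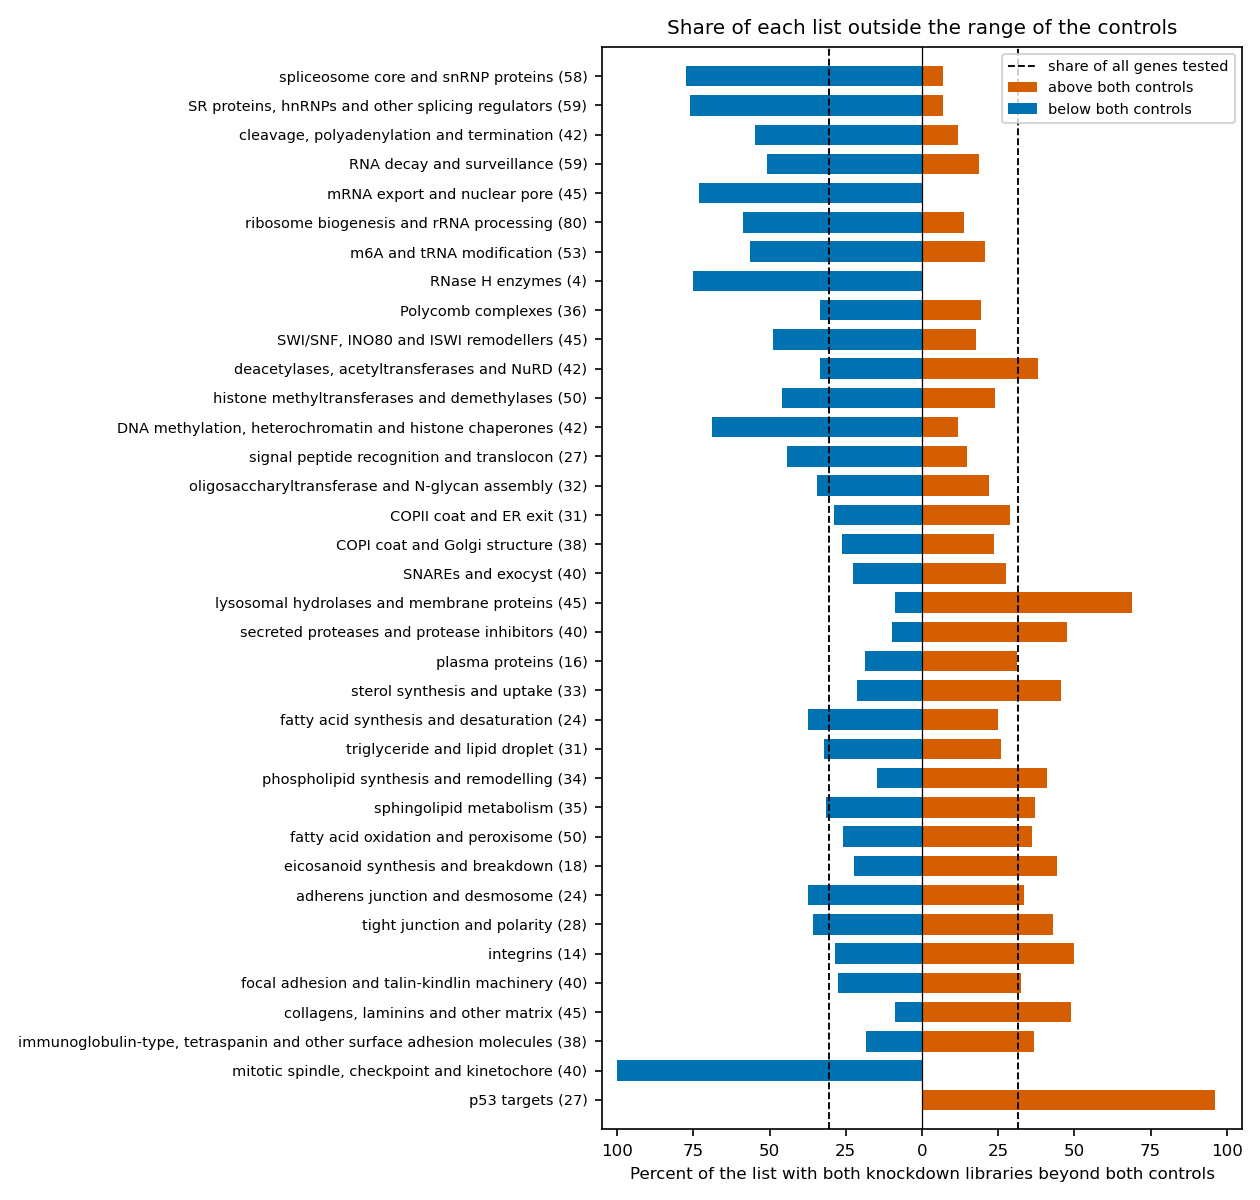
Percent of the genes tested in each list for which both knockdown libraries lay below both controls (bars to the left) or above both (bars to the right); dashed lines mark the shares of all 14662 genes, 30.5% and 31.4%. On the lower side the mitotic list reaches 100%. Spliceosome, splicing regulator, export and heterochromatin lists reach 77.6%, 76.3%, 73.3% and 69.0% there, and the list of 4 RNase H genes 75%. On the higher side lysosomal genes reach 68.9%, after the p53 targets with 96.3%.

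Among chromatin genes 1 of 5 lists stood lower than the rest. Of 220 genes 215 were tested, with 100 below both controls (46.5%), 48 above both (22.3%) and a median of −0.08. DNA methylation, heterochromatin and histone chaperone genes, which copy and compact chromatin and are in part expressed with DNA replication, had 29 of 42 members below both controls and 5 above, with medians of −0.39 over both libraries, −0.33 in LNA1 and −0.46 in LNA3. They also held 6 of the 7 chromatin genes that were at least 1.5-fold lower in both libraries. LMNB1, which encodes lamin B1 of the nuclear lamina, was at 34.1 and 38.2 RPKM in the controls, 19.9 in LNA1 and 16.6 in LNA3 (−0.95 ± 0.13). HELLS, a remodeller needed for DNA methylation of repeats, was at 7.20 and 7.62, then 3.41 and 3.42 (−0.93 ± 0.09). TMPO (−0.91 ± 0.15), a lamina-associated protein, and the H2A.Z chaperone ANP32E (−0.82 ± 0.09) were lower too. LMNA, encoding the A-type lamins, was on the other side, at 98.5 and 107 RPKM in the controls, 122 in LNA1 and 191 in LNA3.

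The other chromatin lists lay near the genome-wide median, with single members far from it. Polycomb genes, whose products methylate lysine 27 of histone H3 and ubiquitinate H2A, had 12 of 36 below both controls and 7 above (median −0.04), with a median of −0.01 in LNA1, −0.13 in LNA3 and 0.01 without control 2. The methyltransferase EZH2 was at 13.1 and 11.9 RPKM in the controls, 6.19 in LNA1 and 6.27 in LNA3 (−0.90 ± 0.09), its partner SUZ12 was at −0.45 ± 0.12, and the histone-binding RBBP7 was at 35.0 and 32.6, then 23.6 and 10.6. SWI/SNF, INO80 and ISWI remodellers had 22 of 45 below and 8 above (median −0.07), with ACTL6A at −0.60 ± 0.09 and the ISWI ATPase SMARCA5 at −0.48 ± 0.11. Histone methyltransferases and demethylases had 23 of 50 below and 12 above (median −0.07), yet the demethylases KDM4B (0.84 ± 0.22) and KDM6B (0.69 ± 0.13) were higher. Acetyltransferases, deacetylases and NuRD subunits had 14 of 42 below and 16 above (median 0.05). The sirtuin SIRT6 was at 12.9 and 12.7 RPKM in the controls, 19.9 in LNA1 and 32.8 in LNA3 (0.95 ± 0.25), and HAT1, which acetylates new histone H4, was at −0.65 ± 0.15. With the GC trend removed the heterochromatin median was −0.41, and that of acetyltransferases and deacetylases was −0.05. HELLS, TMPO, RBBP7, ACTL6A and SMARCA5 share exon bases with another annotated gene.

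Along the secretory route the early steps had medians near that of all genes, lysosomal genes were mostly above both controls, and plasma proteins shared no direction. Of 302 genes in 8 lists 269 were tested, 95 above both controls (35.3%) and 62 below both (23.0%), with a median of 0.05. Signal peptide recognition and the translocon, which pass new proteins into the endoplasmic reticulum, had 12 of 27 below both controls and 4 above (median −0.08). SEC61G, the small subunit of the channel, was at 45.9 and 43.2 RPKM in the controls, 28.1 in LNA1 and 30.2 in LNA3 (−0.59 ± 0.09), and the signal recognition particle subunit SRP9 (−0.56 ± 0.17) and signal peptidase subunit SPCS2 (−0.59 ± 0.17) were lower. Glycosylation genes had 11 of 32 below and 7 above (median −0.06, with −0.13 in LNA1 and 0.04 in LNA3), with the glucosidase MOGS at 0.54 ± 0.09. COPII genes, which bud vesicles from the reticulum, had 9 of 31 on each side, the COPI and Golgi list 9 of 38 above and 10 below, and SNAREs and exocyst 11 of 40 above and 9 below. The medians of these 3 lists were −0.07, −0.05 and −0.02 in LNA1 and 0.15, 0.11 and 0.07 in LNA3, so each took the other sign in the second library.

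Lysosomal genes showed the most even higher level outside the p53 targets. Of 45 tested 31 lay above both controls (68.9%) and 4 below, with medians of 0.24 over both libraries, 0.19 in LNA1 and 0.35 in LNA3. ARSA, the sulfatase that degrades sulfatide, was at 10.8 RPKM in both controls, 20.04 in LNA1 and 31.8 in LNA3 (1.16 ± 0.23). IDUA, which degrades glycosaminoglycans, was at 8.34 and 8.37, then 14.5 and 24.9 (1.10 ± 0.26), the acid glucosidase GAA at 28.98 and 32.4, then 41.5 and 89.1, and the mannosidase MAN2B1 at 0.85 ± 0.24.

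Secreted proteases and their inhibitors had 19 of 40 above both controls and 4 below (median 0.14). TIMP1, an inhibitor of matrix metalloproteases, was at 57.1 and 60.6 RPKM in the controls, 102 in LNA1 and 120 in LNA3 (0.90 ± 0.12). The thrombin inhibitor SERPINE2 (0.77 ± 0.15), the urokinase receptor PLAUR (0.70 ± 0.09) and the cystatin CST1 (0.70 ± 0.12) were higher. Plasma proteins did not share a direction, with 5 of 16 above both controls and 3 below. VTN, the adhesive plasma protein vitronectin, was at 4.69 and 4.96 RPKM, then 11.9 and 15.0 (1.30 ± 0.14). The fibrinogen chains FGB and FGG were lower: FGB was at 7.87 and 7.31, then 3.89 and 4.57 (−0.72 ± 0.11), and FGG at 3.001 and 3.03, then 1.72 and 1.71 (−0.56 ± 0.09). FGA, the third chain, was at 6.78 and 6.17 in the controls, 6.32 in LNA1 and 10.6 in LNA3. With the GC trend removed the lysosomal and protease medians were 0.28 and 0.14, and the median of plasma proteins was 0.28 against 0.17. IDUA, MAN2B1 and VTN share exon bases with another annotated gene.

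Lipid genes showed no common direction, and the differences lay in single enzymes. Of 257 genes in 7 lists 225 were tested, 82 above both controls (36.4%) and 59 below both (26.2%), with a median of 0.04. Sterol synthesis and uptake had 15 of 33 above and 7 below (median 0.07). ABCA1, which exports cholesterol, was at 2.00 and 1.98 RPKM in the controls, 6.36 in LNA1 and 3.56 in LNA3 (0.95 ± 0.25). MVD of the mevalonate pathway was at 10.8 and 11.5, then 17.6 and 15.5 (0.53 ± 0.10), while IDI1, the next enzyme, was at 10.9 and 10.0, then 5.05 and 7.004 (−0.72 ± 0.17). Fatty acid synthesis had 6 of 24 above and 9 below, with a median of −0.04 in LNA1 and −0.22 in LNA3. ACLY, which makes cytosolic acetyl-CoA from citrate, was at 291 and 300 RPKM in the controls, 259 in LNA1 and 115 in LNA3. ACACB, an acetyl-CoA carboxylase, was higher by a like amount in both (0.63 ± 0.09).

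Phospholipid synthesis and remodelling had 14 of 34 above both controls and 5 below (median 0.14), with 0.05 in LNA1 and 0.28 in LNA3. Its highest members MBOAT7 (0.75 ± 0.25), PLD3 (0.73 ± 0.28) and PLD2 (0.66 ± 0.23) were nearer the controls in LNA1. Triglyceride and lipid droplet genes had 8 of 31 above and 10 below. LPIN3, a phosphatidate phosphatase, was at 10.3 and 10.0 RPKM, then 15.6 and 23.96 (0.87 ± 0.22), FITM2, needed to form lipid droplets, was lower (−0.59 ± 0.09), and GPAT4, which starts glycerolipid synthesis, was at 13.6 and 12.7 in the controls, 13.1 in LNA1 and 1.92 in LNA3. Sphingolipid genes had 13 of 35 above and 11 below, with acid sphingomyelinase SMPD1 at 0.63 ± 0.12 and the lactosylceramide synthase B4GALT5 at 31.2 and 31.1 RPKM, then 23.4 and 10.9. Fatty acid oxidation and peroxisome genes had 18 of 50 above and 13 below, with medians of −0.01 in LNA1 and 0.15 in LNA3, and with the peroxin PEX16 at 0.72 ± 0.11. Eicosanoid genes had 8 of 18 above and 4 below. There PTGES, the inducible prostaglandin E synthase, was at 41.6 and 44.0 RPKM, then 84.4 and 59.7 (0.72 ± 0.19), AKR1C3, which reduces prostaglandins, was lower (−0.56 ± 0.10), and PTGS2, cyclooxygenase 2, was at 5.07 and 4.98, then 4.44 and 13.7. PLD3, LPIN3, ACLY, GPAT4 and IDI1 share exon bases with another annotated gene.

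**Figure D3:**
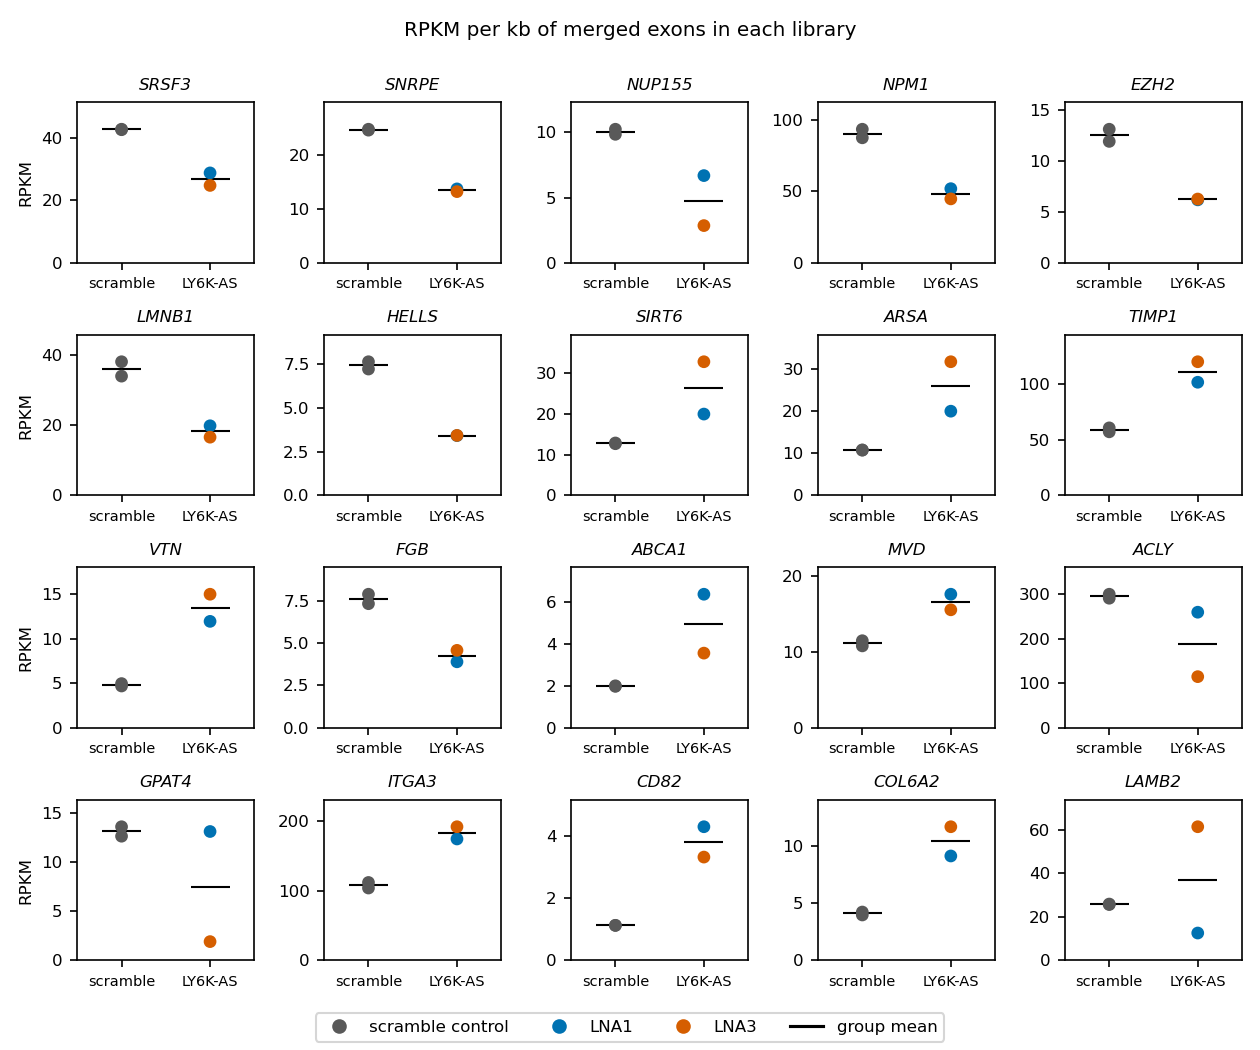
RPKM per kilobase of merged exons of 20 genes in each library, with controls in grey, LNA1 in blue, LNA3 in orange and a bar at each group's mean (n = 2). Knockdown libraries lie close together for SNRPE, EZH2 and HELLS, and far apart for ACLY, GPAT4 and LAMB2.

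Matrix and adhesion genes were higher in part, and more of them than of all genes lay above both controls. Of 235 genes in 6 lists 189 were tested, 76 above both controls (40.2%) and 45 below both (23.8%), with a median of 0.05. Mean transcript GC ran from 50.03% to 56.2% in the 6 lists, above the 49.9% of all genes. In quartiles 3 and 4 of transcript GC, with 4 the highest, 34.4% and 62.6% of genes lay above both controls. Whether the 40.2% exceeds the share among genes of like GC was not tested. Collagens, laminins and other matrix genes had 22 of 45 above and 4 below, with medians of 0.23 over both libraries, 0.24 in LNA1 and 0.19 in LNA3. COL6A2 was at 3.96 and 4.22 RPKM in the controls, 9.11 in LNA1 and 11.7 in LNA3 (1.15 ± 0.14), and COL6A1, which assembles with it into collagen VI, was at 7.45 and 7.92, then 14.8 and 19.5 (1.05 ± 0.15). HSPG2, the basement membrane proteoglycan perlecan, was at 30.9 and 35.2, then 59.4 and 64.7 (0.89 ± 0.11). With the GC trend removed the median of this list was 0.08. The medians were then 0.21 for integrins, −0.11 for focal adhesion, −0.02 for surface adhesion and −0.003 for adherens junction genes.

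The laminin chains named here differed between the libraries. LAMB3, the beta chain of an epithelial laminin of basement membranes, was at 10.3 and 11.7 RPKM, then 18.4 and 32.8 (1.10 ± 0.29). LAMB2, the beta chain of another laminin, lay on opposite sides of the controls, at 25.7 and 25.9, then 12.6 and 61.4, and its mean difference of 0.12 ± 0.75 describes neither library. Integrins, the receptors for these proteins, had 7 of 14 above both controls and 4 below, with a median of 0.31 in LNA1 and 0.03 in LNA3. ITGA3, a laminin receptor subunit, was at 104 and 112 RPKM, then 174 and 192 (0.76 ± 0.11). ITGB4, which anchors hemidesmosomes, was at 38.2 and 43.7, then 56.4 and 85.4 (0.75 ± 0.23), and the collagen receptor subunit ITGA2 was at 0.66 ± 0.10. ITGA6, the usual partner of ITGB4, was at 20.7 and 21.7, then 25.6 and 12.5.

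Among surface adhesion molecules 14 of 38 lay above both controls and 7 below (median 0.03). CD82, a tetraspanin, was at 1.13 and 1.12 RPKM in the controls, 4.29 in LNA1 and 3.31 in LNA3 (1.17 ± 0.14), and CADM4 (0.77 ± 0.18) and IGSF8 (0.73 ± 0.10) were higher. CADM1 was lower, at 5.02 and 5.12, then 3.46 and 1.43 (−0.88 ± 0.31). Focal adhesion genes had 13 of 40 above and 11 below, and the sign of their median depended on the libraries used: −0.04 over all 4, 0.03 in LNA1, −0.08 in LNA3 and 0.02 without control 2. BCAR1, the docking protein p130Cas, was at 16.2 and 18.0, then 29.8 and 29.2 (0.76 ± 0.09), and its partner DOCK1, an exchange factor for Rac, was at 14.3 and 14.2, then 7.62 and 9.72 (−0.67 ± 0.14). Tight junction and polarity genes had 12 of 28 above and 10 below, with a median of −0.01 in LNA1, 0.16 in LNA3 and 0.06 with the GC trend removed. CLDN2 was lower in both (−0.54 ± 0.08), while SCRIB (0.65 ± 0.22) and CLDN3 (0.57 ± 0.24) were higher. Adherens junction and desmosome genes had 8 of 24 above and 9 below, with PERP at 0.57 ± 0.12, PLEKHA7 at −0.61 ± 0.09, and N-cadherin, CDH2, at 12.4 RPKM in both controls, 13.1 in LNA1 and 4.98 in LNA3. CD82, BCAR1, DOCK1, HSPG2, LAMB3, ITGA6, CLDN2, SCRIB, PLEKHA7 and CDH2 share exon bases with another annotated gene.

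The knockdown libraries were farther from each other than the controls were. The difference between LNA3 and LNA1 had an SD of 0.396 over the 14662 genes, against 0.158 between the controls. At least 1.5-fold apart were 1623 genes (11.1%) between the knockdown libraries, 772 with LNA3 above LNA1 and 851 with LNA3 below, and 199 (1.36%) between the controls. Each knockdown library stands alone, so this difference has no test, and a second gapmer, a second culture and a second library preparation cannot be told apart. Set against separate controls, LNA1 minus control 1 and LNA3 minus control 2 had a Pearson r of 0.52 across genes and the same sign for 70.3% of them. With the controls exchanged these were 0.48 and 69.2%. Both libraries also ran with transcript GC, with rank correlations of 0.41 for LNA1 and 0.52 for LNA3. How much of r and of the shared signs goes with GC was not tested. Genes are not independent replicates, and no p is given.

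**Figure D4:**
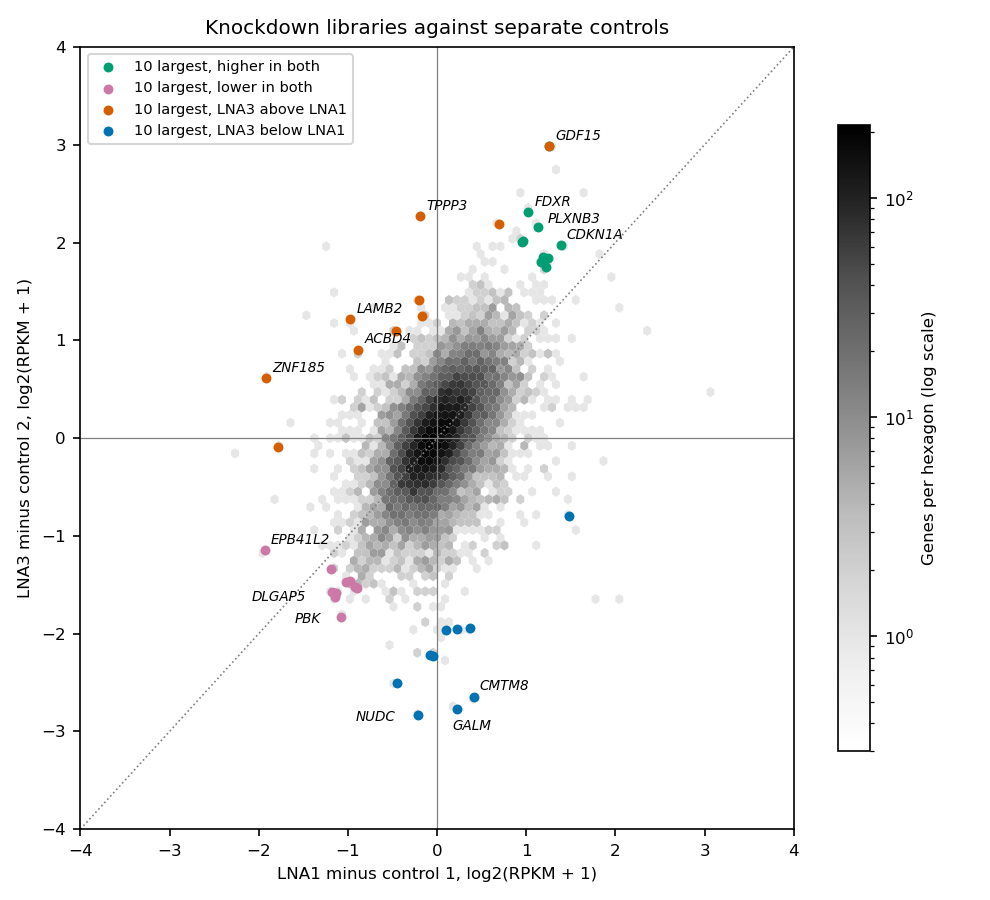
Difference of LNA1 from control 1 (x axis) and of LNA3 from control 2 (y axis), in log2(RPKM + 1), for 14662 genes as hexagons shaded by the number of genes; the dotted line marks equal differences. Genes chosen for a large difference in both libraries lie at the upper right and lower left, and those chosen for a large LNA3 minus LNA1 difference lie far above or below the line.

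The 10 genes with LNA3 farthest below LNA1 were mostly near the controls in LNA1. NUDC, a cochaperone of the dynein complex, was at 58.7 and 58.9 RPKM in the controls, 50.5 in LNA1 and 7.40 in LNA3. GALM, a sugar mutarotase, was at 15.1 RPKM in both controls, 17.8 in LNA1 and 1.36 in LNA3, and CMTM8, a membrane protein, at 8.35 and 8.37, then 11.4 and 0.496. EPHX1, the microsomal epoxide hydrolase, was at 123 and 126, then 144 and 31.9. GPAT4, TUSC3 (an oligosaccharyltransferase subunit), the zinc transporter SLC39A8, CCDC90B and STRBP were likewise lowest in LNA3. The exception was ANGPTL4, a secreted inhibitor of lipoprotein lipase, at 16.9 and 17.6 in the controls, 49.0 in LNA1 and 9.72 in LNA3.

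On the other side, 4 of the 10 genes with LNA3 farthest above LNA1 were more than 0.8 below the controls in LNA1. ZNF185, an actin-associated LIM protein, was at 8.58 and 9.31 RPKM in the controls, 1.53 in LNA1 and 14.7 in LNA3. RBM19, a nucleolar protein of small ribosomal subunit assembly, was at 11.1 and 11.3, then 2.51 and 10.6, and ACBD4 and LAMB2 were also low in LNA1 and high in LNA3. TPPP3, a tubulin-binding protein, was high in LNA3 alone, at 3.83 and 4.10, then 3.22 and 23.6. ALDH3A1, the aldehyde dehydrogenase abundant in A549, was at 490 and 507, then 793 and 2323 RPKM, above the controls in both. Of the genes named for a difference between the knockdown libraries, NUDC, EPHX1, SLC39A8, CCDC90B, STRBP, ANGPTL4, GPAT4, RBM19, ACBD4, TPPP3 and ALDH3A1 share exon bases with another annotated gene.

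Genes that stood apart in only 1 knockdown library were counted by a rule chosen after the values were seen. It took protein-coding genes with controls less than 0.2 apart and at least 5 RPKM in some library (7170 genes), whose one knockdown library differed from the control mean by at least 1, that is 2-fold, and the other by less than 0.3. LNA3 alone was below the controls for 80 genes and above for 38, and LNA1 alone was below for 8 and above for 1. Differences were also wider in LNA3 over all 14662 genes. LNA3 minus control 2 had an SD of 0.473 and LNA1 minus control 1 of 0.341, so a fixed threshold is met more easily in LNA3. The 80 genes low in LNA3 alone had long genomic spans, with a median of 78324 bases against 28524 bases over the 7170, and 38.8% of them reached 100 kb against 14.9%. The 8 low in LNA1 alone (RBM19, ZC3H13, LIG1, MTHFD1L, ADCY3, CHMP3, REPIN1 and DEF8) had a median span of 79172 bases. The 38 high in LNA3 alone had a median span of 24196 bases and averaged 58.7% GC, against 46.0% for the 80 and 50.6% for the 7170. The 8 low in LNA1 alone averaged 53.9% GC, above the 7170, where the 80 lay below. Merged exons of the 80 were also long, with a median of 6546.5 bases against 4780 over the 7170. No test was made, and the gapmer sequences were not used here, so matches to them were not tested.

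The 80 genes included several of vesicle traffic. EXOC4 (−1.47 in LNA3, −0.26 in LNA1), EXOC3 (−1.22 and 0.18) and EXOC6B (−1.70 and −0.03) encode exocyst subunits, SEC23A (−1.11 and −0.23) a COPII coat subunit, SEC63 (−1.18 and −0.20) a translocon partner, and NBAS (−1.26 and −0.27) and SCFD2 (−1.95 and −0.06) factors of Golgi traffic. MAN2A1 (−1.10 and 0.25) and MAN2A2 (−1.89 and 0.07) encode Golgi mannosidases that trim N-glycans. They were picked for their function after the values were seen, and EXOC3, SEC23A, SEC63 and MAN2A2 share exon bases with another annotated gene. The secretory lists as a whole held 18 of 269 genes with LNA3 at least 1.5-fold below LNA1 and 20 with LNA3 above, beside 851 and 772 of all 14662, so these genes do not describe the route as a group.

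**Figure D5:**
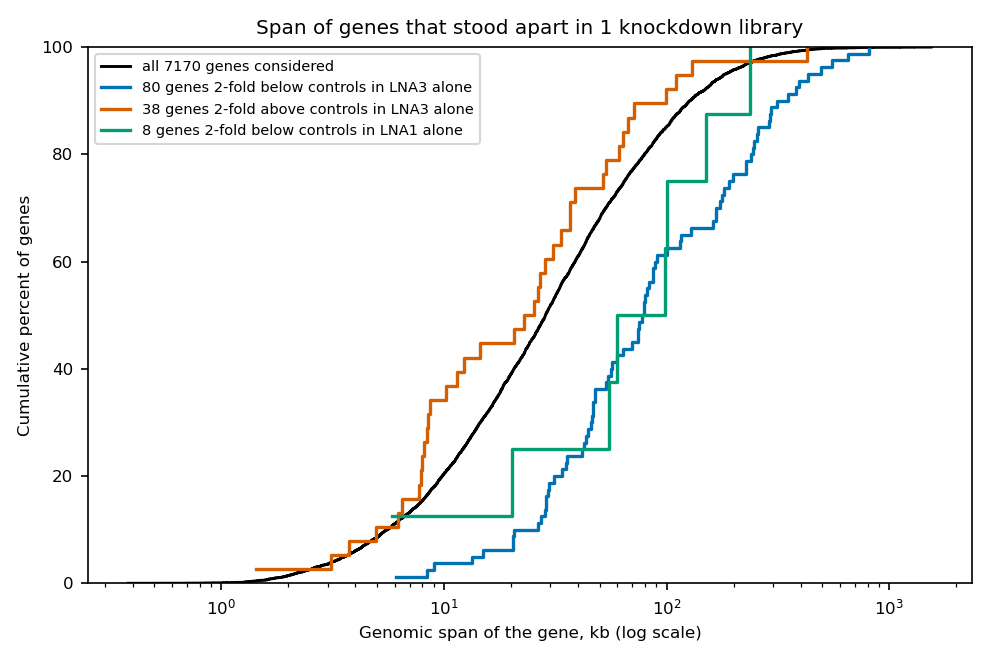
Cumulative percent of genes by genomic span in kilobases (log scale) for the 7170 genes considered and for genes at least 2-fold below or above the controls in 1 knockdown library alone. The curve of the 80 genes low in LNA3 alone lies right of all genes, with 38.8% at 100 kb or more against 14.9%.

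Across all genes the differences ran with base composition and span. In the quartile of genes with the lowest transcript GC, 52.9% lay below both controls and 10.5% above, with a median of −0.16, and in the highest quartile 6.63% lay below and 62.6% above, with a median of 0.28. The rank correlation with GC was 0.41 for LNA1, 0.52 for LNA3, 0.31 for LNA3 minus LNA1 and 0.24 for control 2 minus control 1. Genes in the quartile with the longest spans had a median of −0.10, with −0.05 in LNA1 and −0.14 in LNA3. Of the chromosomes, 19 (1065 genes) had the highest median, 0.20, with 52.5% of genes above both controls, followed by 22 (0.15) and 16 (0.11). Chromosomes 2 (−0.09), 18 (−0.09) and 5 (−0.09) had the lowest of the autosomes. Transcript GC averaged 57.1%, 55.7% and 54.6% on chromosomes 19, 22 and 16, and 47.2%, 45.0% and 46.6% on 2, 18 and 5. It averaged 45.9% in the quartile with the longest spans and 52.8% in that with the shortest. Whether chromosome or span counts apart from GC was not tested. With the GC trend removed, 173 genes were at least 1.5-fold higher in both libraries in place of 339, and 205 in place of 229 were lower.

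Of 561 lincRNAs 159 lay above both controls (28.3%) and 110 below both (19.6%). Of 780 antisense genes 222 lay above (28.5%) and 112 below (14.4%). All these shares were under those of all genes, 31.4% above and 30.5% below. The medians of lincRNAs and antisense genes were 0.05 each. The 32 mitochondrially encoded genes differed between libraries, with medians of 0.14 in LNA1, −0.92 in LNA3 and −0.41 for control 2 minus control 1, and only 3 of them lay below both controls. Small nucleolar RNAs (94 genes) had medians of 0.08 in LNA1 and −0.16 in LNA3. Only 11 lay above both controls (11.7%) and 19 below both (20.2%). The controls themselves were at least 1.5-fold apart for 23 of the 94, against 1.36% of all genes, so these medians say little.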

How the data were processed

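The deposited table held RPKM of 66206 genes in the 4 LNA libraries. The submitters' processing notes list STAR, featureCounts, Subread, Picard and hg38, without versions or roles; no source used here states whether counting used strand. The authors' RPKM were divided by each gene's genomic span. Multiplied by end minus start (GENCODE 29), the deposited RPKM gave whole reads (within 0.05) for 100% of genes with the same identifier version, and they were rescaled to merged exon length. Of the 66206 genes 57055 matched by identifier and the others were not used here. The rescaling changes levels and the weight of the pseudocount, not which reads were counted.

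Groups were compared with limma 3.58.1 in R 4.3.3 on log2(RPKM + 1), with a prior that follows intensity, two-sided. Benjamini-Hochberg adjustment ran over the 14662 genes tested, with 2 residual degrees of freedom. The procedure was tested on simulated data that gave every library the same dispersion. Here the knockdown libraries differed more (SD 0.396) than the controls (SD 0.158), so the simulation does not show how the test behaves on these data. Counts and medians were taken in Python 3.11.15 with pandas 2.3.3, and lists carry no test. The members and lists were chosen with earlier results of these data known. The genes named were, per list, up to 4 members with the largest difference whose knockdown libraries lay beyond both controls (higher mean at least 2 RPKM) and up to 2 with the largest LNA3 minus LNA1 difference. Added were the 10 protein-coding genes with the largest difference in each direction (unadjusted p under 0.05, 1.5-fold in both libraries, at least 5 RPKM) and the 10 with LNA3 farthest above and below LNA1. The LNA3 against LNA1 choices required controls less than 0.2 apart. The main fit did not pair samples by replicate number. Control 2 minus control 1 and LNA3 minus LNA1 had a correlation of 0.08 across genes. That does not settle whether same-numbered samples share a batch, because LNA1 and LNA3 may also differ by gapmer. Some genes that this rule names are not reported here.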

Additional observations from a re-analysis of the deposited data

How the results depend on the processing

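Over the alternatives run limma called 0 genes at an adjusted p of 0.05, except with the spread pooled over all 8 libraries, where 64 of 12861 passed (25 higher), and when a knockdown library was left out. Leaving out each library in turn gave 0 to 7725 genes past the adjusted p, 828 to 8768 at an unadjusted p under 0.05 (3706 with all 4), 340 to 1503 at least 1.5-fold higher (339) and 241 to 1226 lower (229); each knockdown library alone meets the fold criterion more easily than both together. With pseudocounts of 0.1 and 0.5 the genes 1.5-fold higher in both were 833 and 527, and with 0.1 those lower were 443 and those apart between LNA1 and LNA3 3060 (1623 at a pseudocount of 1). On the values as deposited they were 164, 93 and 719, and with a 2-fold threshold 38, 18 and 366. Removing the GC trend left 173 higher. With a replicate block 0 genes passed and 3432 had an unadjusted p under 0.05; the samples share only a number. Of the 156 genes named for a difference from the controls, none turned direction under the alternatives run that still tested it. They were picked with both knockdown libraries on the same side of the controls. Leaving out a library or changing the pseudocount, the filter or the gene length could therefore hardly turn them, and the count is no measure of robustness. With the GC trend removed the medians of the COPI, eicosanoid, surface adhesion and deacetylase lists took the other sign, all within 0.1 of 0. List medians took the other sign in 0 to 6 of 36 lists per alternative, and of lists past 0.1 only tight junction genes without LNA3. The 2 libraries a group leave 2 residual degrees of freedom, which limits every test here.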
